A study of Homo sapiens with 4 samples.

Results

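KIF20A, SPAG5 and TUBA4A encode a motor, an attachment factor and a tubulin of the mitotic spindle, and the RNA of all 3 was lower in HCT116 cells with an shRNA against PCAF. HCT116 is an established human colorectal carcinoma line. PCAF, now named KAT2B, is a lysine acetyltransferase and transcriptional coactivator, and the series is titled for genes targeted by p27, an inhibitor of cyclin-dependent kinases. The 3 genes were taken by name from the table of higher and lower genes that the authors deposited, and each had 1 line and 1 probe set there. They are 3 of the 759 probe sets that table names, out of 33297 on the arrays. That table was drawn from the same comparison, so the differences of these genes between the groups are given as a description, with no test.

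Total RNA from 2 samples labelled as PCAF knock-down, transfected with an shRNA against PCAF (shPCAF), and from 2 labelled as wild-type, transfected with a control shRNA (shControl), was measured on 4 single-colour Affymetrix arrays. Both groups were asynchronously growing HCT116 cells, and no time after transfection is given in the labels. Each array gave 1 log2 signal per probe set. The labels do not say whether the 2 samples of a group came from separate cultures, so errors cover the spread between arrays alone, possibly technical, and the number of arrays limits the precision. Array medians were 7.03 and 7.02 in shPCAF cells and 7.08 and 7.10 in shControl cells. Only the authors' deposited table pairs probe sets with genes, and none of its lines names KAT2B, so the knockdown itself was not checked here.

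The spindle is built from microtubules, which are polymers of alpha- and beta-tubulin, and is moved and shaped by motor proteins and associated factors. RNA of genes for mitotic motors and attachment factors is most abundant in G2 and mitosis. Its level in an asynchronous culture thus depends on the share of cells in those phases as well as the output per cell. Alpha-tubulin genes are also used in interphase. In RNA of whole cultures, fewer cells in a phase and less RNA per cell cannot be told apart.

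KIF20A (MKLP2) is a kinesin that carries the chromosomal passenger complex to the central spindle at anaphase and is needed for cytokinesis. Its log2 signal was 10.45 and 10.58 in the shPCAF arrays, against 11.76 and 11.79 in the shControl arrays. Both shPCAF arrays lay below both shControl arrays, and the gap of 1.18 between the nearest arrays of the groups was wider than the 0.125 between the shPCAF replicates and the 0.0329 between the shControl replicates. The group means were 10.52 ± 0.09 in shPCAF cells and 11.77 ± 0.02 in shControl cells (SD, n = 2 each). The log2 difference was -1.26 ± 0.08 (moderated SE from limma), with a 95% interval of -1.46 to -1.06, so that the signal was 2.39-fold lower, or 41.8% of that in shControl cells.

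SPAG5 encodes astrin, which binds spindle microtubules and kinetochores and stabilises their attachment. Its log2 signal was 9.72 and 9.76 in the shPCAF arrays, against 11.02 and 11.08 in the shControl arrays. The groups did not overlap here either, and of the 3 genes SPAG5 had the widest gap between groups (1.26) and the closest shPCAF replicates, which differed by 0.0350. The shControl replicates differed by 0.0632. The means were 9.74 ± 0.02 in shPCAF cells and 11.05 ± 0.04 in shControl cells (SD, n = 2 each). The log2 difference was -1.31 ± 0.07 (moderated SE), with a 95% interval of -1.49 to -1.13, a 2.48-fold lower signal.

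TUBA4A encodes an alpha-tubulin isotype, a subunit of the microtubule itself and not a protein of mitosis alone. Its log2 signal was 10.41 and 10.51 in the shPCAF arrays, against 11.68 and 11.81 in the shControl arrays. Again both shPCAF arrays were the lower ones, by a gap of 1.18, while replicates differed by 0.0943 in shPCAF cells and by 0.130 in shControl cells. The means were 10.46 ± 0.07 in shPCAF cells and 11.75 ± 0.09 in shControl cells (SD, n = 2 each). The log2 difference was -1.29 ± 0.08 (moderated SE), with a 95% interval of -1.51 to -1.07, a 2.44-fold lower signal. Alpha-tubulin genes are close in sequence, and how far RNA of other isotypes adds to this signal was not tested.

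**Figure D1:**
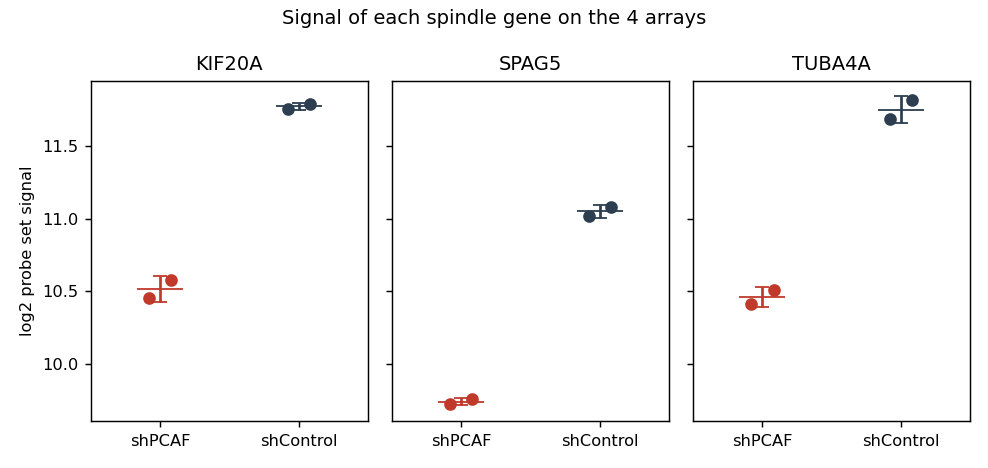
Log2 probe set signal (vertical axis) of KIF20A, SPAG5 and TUBA4A on each array, with shPCAF left and shControl right. Points are arrays, wide bars are group means and error bars are SDs (n = 2 each), and in each gene both shPCAF arrays lie below both shControl arrays by a gap of 1.18 to 1.26.

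The falls were alike in size. The difference between the log2 differences of any pair of the 3 genes was at most 0.0537, that of KIF20A over SPAG5. It is less than the moderated SE of either (0.0774 for KIF20A and 0.0691 for SPAG5). The 95% intervals of every pair overlap, which does not show that the falls are equal, and their likeness was not tested. By size of fall, SPAG5 was at place 40, TUBA4A at place 50 and KIF20A at place 55 of the 33297 probe sets. Among the 218 falls that the authors' deposited table gives under a single symbol they stood at places 10, 12 and 14. The median log2 difference over all probe sets was -0.05, and over the 237 named falls it was -0.86. At an adjusted p below 0.05 (limma, Benjamini-Hochberg), 5.85% of all probe sets were called lower in shPCAF cells and 7.05% higher, 1948 and 2346 in number. With the arrays centred on their medians, 1419 were called lower and 3012 higher. All 3 genes are among those called lower, but nothing can be read from that, as the same contrast chose them. In 36% of all probe sets both shPCAF arrays lay below both shControl arrays.

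**Figure D2:**
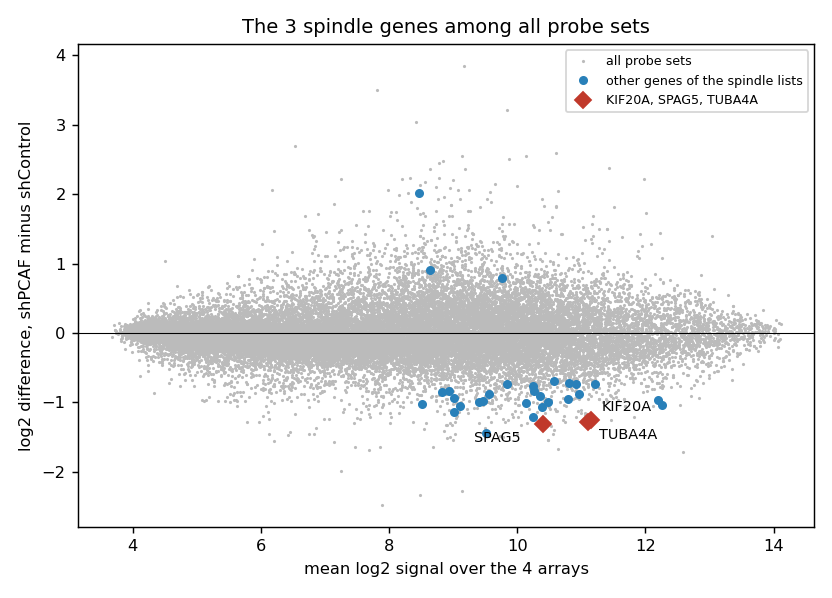
Log2 difference of shPCAF minus shControl (vertical axis) against the mean log2 signal over the 4 arrays (horizontal axis) for all 33297 probe sets (grey), the other genes of the spindle and microtubule lists (blue) and KIF20A, SPAG5 and TUBA4A (red diamonds). The 3 genes lie at log2 differences of -1.26 to -1.31, near the lower edge of the cloud and away from its dim end.

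The signals of the 3 genes were far from the dim end of the arrays. On the shPCAF arrays 87.1% and 87.9% of probe sets had a lower signal than that of KIF20A, against 95.1% and 95.2% on the shControl arrays. For SPAG5 the shares were 80.1% on both shPCAF arrays, against 91.2% and 91.6% on the shControl arrays. For TUBA4A they were 86.8% and 87.3% on the shPCAF arrays, against 94.8% and 95.3% on the shControl arrays. Signals of different probe sets do not rank transcripts, so these shares only place each probe set within the range of its array. Whether the p-values of the authors' deposited table were adjusted is not known here. The authors' deposited table gives KIF20A a value of 2.70 and a p of 0.0224. The authors' deposited table gives TUBA4A 2.76 and a p of 0.00567, and SPAG5 2.80 and a p of 0.00287. That column of the authors' deposited table is headed fold change, but its values for the 3 genes are each 2.14 times the absolute log2 difference, and so exceed the folds of 2.39 to 2.48 that the signals give. The smallest fall in the authors' deposited table was 0.70 on the log2 scale, that of the kinesin KIF22, so the 3 genes are not near its lower limit.

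The sequences before the starts of these genes are shown as a description, and they let the promoters be compared. The 3 genes were matched by symbol to RefSeq promoters (GRCh38.p14), and the 250 bases before each start are printed 5′ to 3′ on the gene's own strand. Capitals mark matches, on either strand, to CCAAT, the box bound by NF-Y. They also mark TTTGAA or TTCGAA, the planned forms of the CHR element of late cell cycle genes, and TTTNNCGC, an E2F-type site. Also marked are TTTAAA and TATAA, which were added after the sequences were seen, and TTTAAA was not counted as a CHR form here. KIF20A lies on the plus strand at chr5:138178862-138179111, SPAG5 on the minus strand at chr17:28599026-28599275, and TUBA4A on the minus strand at chr2:219253919-219254168.
KIF20A: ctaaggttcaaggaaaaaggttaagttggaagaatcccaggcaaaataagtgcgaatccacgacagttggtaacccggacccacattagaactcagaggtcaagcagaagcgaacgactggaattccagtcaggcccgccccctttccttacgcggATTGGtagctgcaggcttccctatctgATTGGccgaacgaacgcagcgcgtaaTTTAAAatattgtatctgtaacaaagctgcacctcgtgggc
SPAG5: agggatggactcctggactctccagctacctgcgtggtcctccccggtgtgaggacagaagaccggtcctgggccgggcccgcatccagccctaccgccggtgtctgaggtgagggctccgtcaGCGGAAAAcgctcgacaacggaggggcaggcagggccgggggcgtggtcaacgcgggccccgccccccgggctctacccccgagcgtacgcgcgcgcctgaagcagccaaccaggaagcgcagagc
TUBA4A: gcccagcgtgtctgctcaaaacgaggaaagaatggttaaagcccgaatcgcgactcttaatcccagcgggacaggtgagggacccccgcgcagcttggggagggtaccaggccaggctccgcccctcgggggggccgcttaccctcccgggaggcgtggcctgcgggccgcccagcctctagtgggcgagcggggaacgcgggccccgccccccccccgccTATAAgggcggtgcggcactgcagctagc
Position -1 is the last base before the start. KIF20A held 2 CCAAT matches, both on the opposite strand, from -94 to -90 and from -67 to -63, and a TTTAAA from -41 to -36. Whether this TTTAAA acts as a CHR element was not tested. SPAG5 had no CCAAT match but an E2F-type match on the opposite strand from -126 to -119, and a TTTGAA on the opposite strand from 4 to 9 after the start, in the 18 bases printed here (chr17:28599008-28599025, minus strand).
SPAG5 site: aggTTCAAAcacagacgg
TUBA4A held none of the CCAAT, CHR or E2F-type letters in its window and had a TATAA from -29 to -25. The windows also differed in base composition, since G and C made up 70.8% of the TUBA4A and 71.2% of the SPAG5 bases, against 49.6% in KIF20A. None of the motifs searched for was thus found in all 3 windows, and no 2 matches overlapped. Other motifs were not searched for, so the windows may share them.

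**Figure D3:**
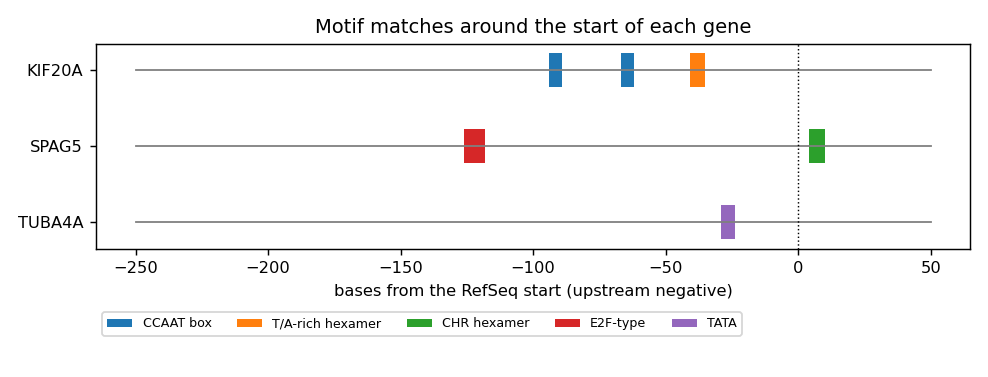
Positions of the motif matches (coloured blocks) in the RefSeq window from 250 bases before to 50 after the start of KIF20A, SPAG5 and TUBA4A, with the distance from the start in bases on the horizontal axis. KIF20A has 2 CCAAT boxes and a T/A-rich hexamer, SPAG5 an E2F-type match upstream and a CHR hexamer just after the start, and TUBA4A a TATA match.

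Among all 27305 RefSeq promoter windows of 300 bases, 35.7% held CCAAT, 15.4% TTTGAA, 1.45% TTCGAA, 6.90% TTTNNCGC, 12.3% TTTAAA and 21.1% TATAA on either strand. A match is a run of letters and is not shown to be bound. Of the 23 other genes of the spindle lists below that were lower under a single symbol, 20 had a window in the RefSeq table. CCAAT was in 14 of these 20 (70%), TTTGAA in 12 (60%), TTCGAA in 2 (10%) and TTTNNCGC, the E2F-type match of SPAG5, in 1 (5%). Counting only the bases before the start, TTTGAA was in 8 of the 20 (40%). In the 176 windows of named single-symbol falls the shares were 48.3% for CCAAT, 18.2% for TTTGAA, 3.41% for TTCGAA and 14.2% for TTTNNCGC. In the 384 windows of named single-symbol rises they were 36.2%, 9.64%, 0.781% and 10.2% in the same order. Before the start, TTTGAA was in 13.1% of the windows of named falls, 8.85% of those of named rises and 13.6% of all windows. TTTAAA, over whole windows, was in 10% of the 20, 7.95% of those of named falls and 9.90% of those of named rises. TATAA was in 5%, 12.5% and 12.2% in the same order. These shares were not tested, and the 20 windows are also among the 176.

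The mitotic kinesins that could be named went the same way as KIF20A, and the only other motor gene named, DYNLT3, went the opposite way. Of 16 mitotic kinesins listed, 4 were in the authors' table, KIF20A included, and all 4 were lower, with a median log2 difference of -0.91. Beside this and the list counts below, 31.2% of the 759 probe sets that the table names are listed as down. The lists were chosen with earlier results of these data known. KIF18B, a kinesin that acts on the plus ends of astral microtubules, had signals of 8.96 and 8.98 in the shPCAF arrays, against 9.88 and 10.02 in the shControl arrays, and was 1.98-fold lower. KIFC1, a minus-end motor that bundles spindle microtubules, was 1.78-fold lower, and KIF22, a motor on chromosome arms, 1.62-fold lower. Of 48 other kinesin, dynein and dynactin genes, 1 was in the table, and it was higher. This was DYNLT3, a light chain of dynein, with 9.08 and 9.10 in the shPCAF arrays, against 8.14 and 8.23 in the shControl arrays, a 1.87-fold difference.

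KIF20A works with the chromosomal passengers and the mitotic kinases. Of 30 listed genes of the central spindle, chromosomal passengers and cytokinesis, 7 were in the table, KIF20A included, and all 7 were lower, with a median of -0.94. PLK1, the mitotic kinase that docks on KIF20A, had 11.65 and 11.81 in the shPCAF arrays, against 12.75 and 12.80 in the shControl arrays, a log2 difference of -1.04 ± 0.08 (moderated SE). AURKB and CDCA8 (borealin), both of the passenger complex, were 1.67-fold and 1.88-fold lower. CEP55, which acts in the final cut between daughter cells, was 1.68-fold lower and ARHGEF39, listed under its older symbol C9orf100, 1.92-fold lower. A probe set shared by the symbols AURKA and AURKAPS1 was 2.10-fold lower and cannot be assigned to the kinase gene alone.

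The spindle-associated and kinetochore genes in the table, the groups SPAG5 acts with, were lower too. Of 50 listed spindle and microtubule associated genes, 5 were in the table and all 5 were lower, with SPAG5 the largest fall and a median of -0.99. PSRC1, a microtubule-binding spindle protein, had 7.95 and 8.04 in the shPCAF arrays, against 8.95 and 9.10 in the shControl arrays, and was 2.04-fold lower. FAM83D, which helps to align chromosomes, was 1.99-fold lower and HAUS2, of the augmin complex that branches microtubules, 1.67-fold lower. A probe set shared by RANBP1 and 2 other symbols was 1.65-fold lower. Neither KNSTRN, the partner of astrin, nor any beta-tubulin was named in the table, which is no measurement of them.

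Of 48 listed kinetochore and spindle checkpoint genes, 13 were in the table and all 13 were lower, with log2 differences from -1.45 to -0.77. ZWINT, a kinetochore protein that recruits checkpoint factors, had 9.55 and 9.74 in the shPCAF arrays, against 10.81 and 10.91 in the shControl arrays, and was 2.31-fold lower. CENPI, of the inner kinetochore, was 2.22-fold lower, but its replicates lay further apart, with an SD of 0.245 in shPCAF cells and of 0.154 in shControl cells. SGO2, which protects cohesion at centromeres, was 2.08-fold lower, SPDL1 (listed as ccdc99), which brings dynein to kinetochores, 2.01-fold, and ESPL1, the protease separase, 2.00-fold. CDC20, the activator of the anaphase-promoting complex, and BUB1B, the checkpoint protein BUBR1, were 1.95-fold and 1.94-fold lower. The largest fall of this list, 2.73-fold, was on a probe set shared by PTTG1 (securin) and PTTG2. The remaining 5 members were 1.70-fold to 1.85-fold lower.

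The tubulin and centriole genes did not move as one. Of 22 listed tubulins 2 were in the table, TUBA4A lower and TUBE1 higher. TUBE1, the epsilon-tubulin of centrioles, had 9.45 and 9.51 in the shPCAF arrays, against 7.50 and 7.43 in the shControl arrays, a log2 difference of 2.01 ± 0.07 (moderated SE). This was the largest change of any gene on the 8 spindle and microtubule lists that the table names, and opposite to that of TUBA4A. CEP120, a gene of centriole assembly and the only one of 36 listed centrosome genes in the table, had 10.04 and 10.27 in the shPCAF arrays, against 9.26 and 9.48 in the shControl arrays, a 1.73-fold difference. None of 23 tubulin folding genes was in the table.

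**Figure D4:**
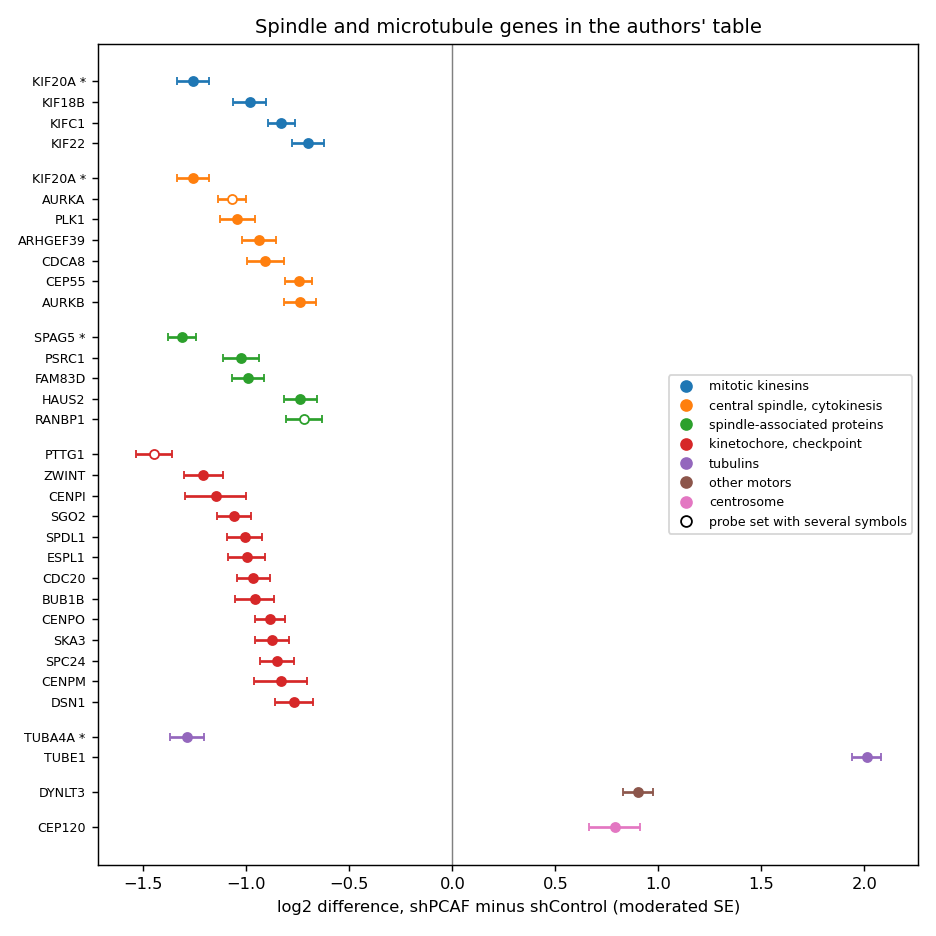
Log2 difference of shPCAF minus shControl (horizontal axis, bars are moderated SEs) for the genes of the spindle and microtubule lists found in the authors' table, grouped by list. Asterisks mark KIF20A, SPAG5 and TUBA4A, KIF20A stands in 2 lists, and open points are probe sets with several symbols. The rises are TUBE1, DYNLT3 and CEP120, and the other points lie between -1.45 and -0.70.

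Over the 8 lists together, which hold 265 genes, 32 were in the table, 29 lower and 3 higher, with a median log2 difference of -0.95. Leaving out KIF20A, SPAG5 and TUBA4A, 26 were lower and 3 higher, with a median of -0.91. The median was -0.86 over the 237 named falls and 0.80 over the 759 named probe sets, of which 31.2% are listed as down. It was -0.05 over all probe sets, but the smallest fall named is 0.70, so that median is no like measure for the lists. All 32 passed limma's test, beside 12.9% of all probe sets, but the table was itself selected on these arrays. The groups did not overlap in any of the 32. Of all probe sets, 36% had both shPCAF arrays below and 23.1% had both above the shControl arrays. The same selection favours groups that do not overlap, so nothing can be read from this either. Genes of the lists that the table does not name have no value here.

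For each of the 3 genes the nearest companions in the table were looked up. Likeness was measured over the 4 arrays as the Euclidean distance between log2 signals after each gene's own mean was taken off, among probe sets with 1 symbol. KIF20A was nearest to FOXM1, at a distance of 0.0544, to GINS2 at 0.0608 and to AHSA1 at 0.0766. Its median distance to all named genes was 2.07, but these are 493 rises and 218 falls, so that median mostly reflects the rises. FOXM1 is a transcription factor of mitotic genes, GINS2 a subunit of the replicative helicase and AHSA1 a co-chaperone of HSP90. TUBA4A was nearest to PPIH, a cyclophilin of the spliceosome, at 0.0171, then to COMMD4 at 0.0587 and to SPAG5 at 0.0672. SPAG5 was nearest to PPIH at 0.0540, to TUBA4A at 0.0672 and to COMMD4 at 0.0776. The genes nearest to SPAG5 and TUBA4A were thus in large part the same, and of those apart from the pair itself none is on the spindle lists. With 4 arrays in 2 groups the distance mostly records the size of the fall, and all of these companions were 2.29-fold to 2.53-fold lower.

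Markers of the cell line and of other cell types were sparse in the table. Of 17 colorectal epithelium markers 2 were named, both higher in shPCAF cells. E-cadherin (CDH1) had 11.56 and 11.26 in the shPCAF arrays, against 10.23 and 10.39 in the shControl arrays, and CLDN7, a tight junction claudin, was 1.69-fold higher. Of 10 fibroblast markers ACTA2 was 1.82-fold higher and TAGLN 1.66-fold lower, of 11 leukocyte markers CD22 was 2.91-fold higher, and none of 6 endothelial markers was named. The part of these differences in the falls of the spindle genes was not tested.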

How the data were processed

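Log2 signals of probe sets were deposited from 4 single-colour arrays, hybridised with biotinylated cRNA per the labels' protocols. The submitters' processing notes name Affymetrix Expression Console and limma, with neither a role nor a version. How signals were summarized and normalized, and on which genome build, is not given in the sources used here. The authors' deposited table gives per line a score headed fold change and a p-value, and whether the latter was adjusted is not known here.

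Differences of shPCAF minus shControl came from lmFit and eBayes of limma (version 3.58.1, R version 4.3.3), fitted to every probe set without covariate, filter or further normalization. The code of the fit was tested on simulated arrays with independent noise drawn from its own fitted prior. That checks the code alone, and not whether the model suits these arrays. P-values were adjusted (Benjamini-Hochberg) across the 33297 probe sets, and 0.05 was the threshold. Folds are 2 to the power of the log2 difference. Symbols of the table were updated to RefSeq (688 of 852 lines were current and 122 were synonyms of a single gene). Promoter windows were searched in Python 3.11.15. The genes and lists were chosen with earlier results of these data known. Named are the 3 genes, up to 8 genes of each list by size of difference, the cell type markers in the table, and the 3 named genes most like each of the 3. KIF22 also stands for the smallest fall in the table. Scanner files were not used, so background and scan batches were not checked. Alternatives were other normalizations, filters, variance models, the replicate block and leaving out arrays.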

Additional observations from a re-analysis of the deposited data

How the results depend on the processing

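Under the 11 alternatives the log2 differences ran from -1.32 to -1.20 for KIF20A, from -1.34 to -1.25 for SPAG5 and from -1.35 to -1.22 for TUBA4A. The filters, variance models, array weights and replicate block could not move these differences. As the groups did not overlap in the 3 genes, leaving out 1 array could not reverse a fall. Nothing can be read from the kept direction under those settings. Median centring shifts every probe set by the same amount, and gave -1.20 for KIF20A, -1.25 for SPAG5 and -1.23 for TUBA4A. For SPAG5 this shift was above the pooled replicate SD of 0.0361 but below the moderated SE of 0.0691. Leaving out each array in turn gave -1.32 to -1.20 for KIF20A, -1.34 to -1.28 for SPAG5 and -1.35 to -1.22 for TUBA4A. The count of probe sets called by limma over the whole array was 4294. It ranged from 0 to 2363 when 1 array was left out: 1933 without shPCAF replicate 1, 2363 without shPCAF replicate 2, and 0 without either shControl array, where 6848 and 6849 probe sets had an unadjusted p below 0.05 by limma. At an adjusted p threshold of 0.01 it was 288. Quantile normalization, median centring, leaving out the dimmest 25%, the trend and robust prior, array weights and, chosen after seeing the data, leaving out the 4201 probe sets of lowest identifier gave 4311 to 5319. With the replicate number as a block it was 4584. In this balanced layout such a block leaves every log2 difference as it is, so the unchanged values of the 3 genes carry no information. Nothing in the labels says that the numbers pair the arrays, and deviations of same-numbered arrays from their group means correlated at 0.25 over probe sets. Counting only probe sets with 1 symbol, 26 genes of the spindle lists were lower, in place of 29. Signal over background was not measured.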
